A study of Homo sapiens with 6 samples.

Results

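Mitochondrial ribosomal protein genes were followed in xenograft tumours of the human liver cancer line MHCC97L (hepatocellular carcinoma), with and without lumican. The genes were taken by symbol, as every row named MRPL or MRPS followed by a number and at most 1 further letter. This gave 77 genes of the 60725 rows in each table, 48 with an MRPL symbol (large subunit) and 29 with an MRPS symbol (small subunit). All 77 were above 0 in every library and all had a mean of at least 1 TPM, so all were among the 14781 genes tested. Expression was given as TPM, the estimated share of a gene's transcripts in a library, corrected for their length.

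The groups were 3 libraries from xenografts treated with recombinant human lumican (rhLUM) and 3 libraries from xenografts of the same line labelled Ctrl. Lumican belongs to the small leucine-rich proteoglycans and is secreted into the extracellular matrix. The sources used here give neither dose, route and length of treatment, nor the host strain, nor what the Ctrl tumours received, nor whether each library is a tumour of its own. What p-values measure is thus the spread among these 6 libraries, part of which can be technical. No batch is labelled, and no value within a batch can be given.

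Mitochondria keep their own ribosome, which translates the few proteins encoded by the mitochondrial genome, all of them subunits of the respiratory chain and ATP synthase. Its RNA comes from the mitochondrial genome, whereas every one of its proteins is encoded in the nucleus, made in the cytosol and imported. Many of the proteins descend from the bacterial ribosome and others were added in the mitochondrial lineage. In liver, an organ rich in mitochondria, and in tumours derived from it, these genes are broadly expressed.

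Each library summed to about 1000000 TPM, which keeps no sequencing depth, so the depth behind each value is unknown. Genes of the mitochondrial genome took 14.3 to 14.5% of the TPM with rhLUM and 20.5 to 20.7% in Ctrl, and the remainder left for nuclear genes was larger with rhLUM. Fold changes are differences of log2(TPM + 1), rhLUM minus Ctrl, and a gene passed the test at an adjusted p under 0.05 in limma over all genes tested. Other scalings moved the median change of all genes from 0.16 as deposited by -0.18 (median-of-ratios), -0.21 (upper quartile) and -0.095 (sum without the genes of the mitochondrial genome). Calls that hold under the deposited values and these 3 other scalings are therefore given apart from the rest. Markers of the cells a xenograft can hold moved in both directions within the liver cancer cell, endothelial and fibroblast lists as deposited. Of the leukocyte and the red cell list only 1 gene each was tested. Of 7 tested liver cancer cell markers 4 rose, among them ALB (825 ± 15.4 TPM with rhLUM and 289 ± 3.08 TPM in Ctrl), KRT8 and KRT18, and 2 fell, SERPINA1 (208 ± 5.32 TPM with rhLUM and 379 ± 2.27 TPM in Ctrl) and EPCAM (0.820 ± 0.304 TPM with rhLUM and 2.03 ± 0.322 TPM in Ctrl), and AFP (28.6 ± 1.95 TPM with rhLUM and 31.2 ± 2.45 TPM in Ctrl) did not pass. Under each of the 3 other scalings AFP was lower. The list summed to 4686 to 4709 TPM with rhLUM and 2658 to 2680 TPM in Ctrl. Much of this sum was KRT8 alone, at 2474 ± 9.59 TPM with rhLUM and 1060 ± 4.73 TPM in Ctrl. Of the endothelial markers (sum of 4 at 26.9 to 31.7 TPM with rhLUM and 21.6 to 22.9 TPM in Ctrl), PECAM1 rose (25.3 ± 2.43 TPM with rhLUM and 16.4 ± 0.285 TPM in Ctrl), CDH5 fell (0.450 ± 0.0529 TPM with rhLUM and 3.10 ± 0.344 TPM in Ctrl), KDR did not pass and VWF was near 0. Of the fibroblast markers (sum of 4 at 8.10 to 10.97 TPM with rhLUM and 12.7 to 13.5 TPM in Ctrl), DCN fell (1.26 ± 0.316 TPM with rhLUM and 7.96 ± 0.351 TPM in Ctrl), COL1A1 rose as deposited but not under all 4 scalings (5.11 ± 0.924 TPM with rhLUM and 3.30 ± 0.727 TPM in Ctrl), COL1A2 did not pass and PDGFRB was near 0. Of the leukocyte markers, CD68 was at 58.1 ± 2.24 TPM with rhLUM and 33.6 ± 0.806 TPM in Ctrl, with PTPRC and CD3E near 0, and the red cell markers (3 genes) summed to 1.75 to 2.52 TPM with rhLUM and 2.64 to 3.50 TPM in Ctrl. The part of these differences in the results was not tested. The processing notes name the human genome GRCh38, whereas vessel, stromal and blood cells of a xenograft come from the mouse host. The human endothelial, fibroblast, leukocyte and red cell markers thus do not measure the amount of these host cells. Whether mouse reads were counted among them is not given in the sources used here. In bulk tumours, fewer cells of a type and less RNA per cell cannot be told apart.

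Nuclear genes of mitochondria are known to be driven in part by NRF1, by the ETS-family factor GABP and by YY1, so the promoter windows were searched for a short core of each motif on both strands. RefSeq (GRCh38.p14) gave a window from 250 bases before to 50 bases after the start for 68 of the 77 genes, and the first window was used for the 11 genes with more than 1. The ETS core CCGGAAG was in 28 of the 68 windows (41.2%), against 10.7% of the windows of all 27305 genes. The YY1 core AAGATGG was in 23 (33.8%), against 6.06% of all genes, and the NRF1 core GCGCATG in 7 (10.3%), against 4.67%. The 27305 genes are all genes with a window, expressed here or not, whereas the 68 are all expressed. Windows of the tested genes alone were not counted, so these shares compare unlike sets. The ETS and YY1 cores shared bases in 0 of the 68 windows. A match describes these letters and does not show that a factor binds there, and AAGATGG holds the letters of a start codon.

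Among genes that were higher with rhLUM under all 4 scalings defined above, 9 of 19 windows held the YY1 core, 5 the ETS core and 0 the NRF1 core. Among those lower under all 4 scalings, the YY1 core was in 6 of 17 windows, the ETS core in 6 and the NRF1 core in 4. The YY1 and ETS letters thus stood in windows of genes that moved in opposite directions. The YY1 core is shown with its surroundings, 30 bases each, for the genes that hold it among the 10 largest rises and the 10 largest falls (RefSeq, GRCh38.p14, strand of the gene, 5′ to 3′, core in capitals). The genes higher with rhLUM were MRPL49 (chr11:65122105-65122134), MRPL45 (chr17:38297171-38297200), MRPL46 (chr15:88467361-88467390), MRPS27 (chr5:72320205-72320234) and MRPL42 (chr12:93467512-93467541). The genes lower with rhLUM were MRPL47 (chr3:179604710-179604739), MRPL20 (chr1:1407259-1407288), MRPL38 (chr17:75904859-75904888), MRPL32 (chr7:42932145-42932174) and MRPL52 (chr14:22829779-22829808). The first 5 lines below rose and the last 5 fell, and MRPL46, MRPS27, MRPL47, MRPL20 and MRPL38 lie on the minus strand.
MRPL49: agctaccgcgAAGATGGagtcgagaaagag
MRPL45: ttgcgggaacAAGATGGcagcccccatacc
MRPL46: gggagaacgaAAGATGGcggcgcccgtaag
MRPS27: ggtacgctccAAGATGGctgcctccatagt
MRPL42: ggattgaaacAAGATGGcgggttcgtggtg
MRPL47: caggatgtggCCATCTTaagtgagggcaag
MRPL20: cgacccgggcAAGATGGcagcggcgctgcg
MRPL38: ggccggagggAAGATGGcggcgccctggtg
MRPL32: ccgcgctccgCCATCTTtacccgaagagcc
MRPL52: acgatgacccAAGATGGcggagccgtgatt
Counted from the start, with the first base after it as 1, the core began at 7 to 17 in MRPL45, MRPL46, MRPS27, MRPL42, MRPL20 and MRPL38. It began at -68 in MRPL49 and at -98 in MRPL52, which held 2 matches. In MRPL47 (-91) and MRPL32 (-221) it lay on the opposite strand.

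For the ETS and NRF1 cores, the 250 bases before the start are shown for MRPS23 and MRPS10, higher with rhLUM, and for MRPL20 and MRPL22, lower with rhLUM. These were the genes with the largest changes whose window held a core before the start and at most 30 bases of annotated exon. The windows are chr17:57850045-57850294 (MRPS23), chr6:42217862-42218111 (MRPS10) and chr1:1407294-1407543 (MRPL20), all on the minus strand, and chr5:154940823-154941072 (MRPL22) on the plus strand (RefSeq, GRCh38.p14, 5′ to 3′). Capitals mark the ETS core in the first 3 and the NRF1 core in MRPL22. In MRPS23 the ETS core lay on the opposite strand and reads CTTCCGG here.
MRPS23: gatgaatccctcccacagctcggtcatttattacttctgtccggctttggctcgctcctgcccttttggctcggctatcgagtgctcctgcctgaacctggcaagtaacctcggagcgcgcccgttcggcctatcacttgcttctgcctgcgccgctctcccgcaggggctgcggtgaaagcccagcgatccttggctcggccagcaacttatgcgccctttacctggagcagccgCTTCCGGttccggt
MRPS10: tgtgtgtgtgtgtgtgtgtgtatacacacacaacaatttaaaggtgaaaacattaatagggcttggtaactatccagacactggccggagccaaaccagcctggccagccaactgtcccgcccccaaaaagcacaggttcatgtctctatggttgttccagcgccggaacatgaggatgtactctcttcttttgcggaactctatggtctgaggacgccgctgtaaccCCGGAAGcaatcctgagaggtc
MRPL20: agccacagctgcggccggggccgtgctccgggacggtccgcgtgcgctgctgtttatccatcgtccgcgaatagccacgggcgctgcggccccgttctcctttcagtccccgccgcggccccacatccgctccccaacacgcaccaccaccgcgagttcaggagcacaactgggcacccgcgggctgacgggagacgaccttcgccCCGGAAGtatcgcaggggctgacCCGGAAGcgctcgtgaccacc
MRPL22: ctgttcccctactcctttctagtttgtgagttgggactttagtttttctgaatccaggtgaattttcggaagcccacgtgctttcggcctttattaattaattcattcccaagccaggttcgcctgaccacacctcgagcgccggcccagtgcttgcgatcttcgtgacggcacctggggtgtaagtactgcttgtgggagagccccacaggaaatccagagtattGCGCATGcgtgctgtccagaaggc
The ETS core began at -14 in MRPS23 and at -22 in MRPS10. MRPL20, which fell, carried it at -44 and again at -21, and the NRF1 core of MRPL22 began at -24. GC content was 61.6% in the window of MRPS23, 50.8% in that of MRPS10 and 70.4% in that of MRPL20.

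With rhLUM, the mitochondrial ribosomal protein genes changed in both directions and by less than 2-fold. As deposited, 33 of the 77 genes rose and 18 fell, and 26 did not pass the test. Of all 14781 genes tested, 66.8% were called, 44.5% as higher and 22.3% as lower, and the 51 genes called (66.2%) were close to that background. With median-of-ratios scaling, which called 65.1% of all genes, 24 of the 77 rose and 35 fell, and the share of higher among the called genes was 40.7%, against 64.7% as deposited (all genes tested: 50.2% and 66.6%). With upper quartile scaling (65.2% of all genes called) the 77 split into 21 and 41, and with the sum taken without the genes of the mitochondrial genome (65.6% called, 38.1% as higher and 27.5% as lower) into 25 and 26. Under all 4 scalings, 21 of the 77 were higher and 18 lower (27.3% and 23.4%), against 52.9% of all genes with the same call, 30.6% as higher and 22.2% as lower.

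The largest rise was 0.80 and the largest fall was -0.68 on the log2 scale, and the median change was 0.065 (interquartile range -0.13 to 0.37). All genes tested had a median of 0.16 (interquartile range -0.23 to 0.53), and 10.6% of them were both called and at least doubled or halved, against 0 of the 77. Under a test against a 1.2-fold change 18 of the 77 rose and 4 fell, against 40.6% of all genes, 28.3% as higher and 12.3% as lower.

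**Figure D1:**
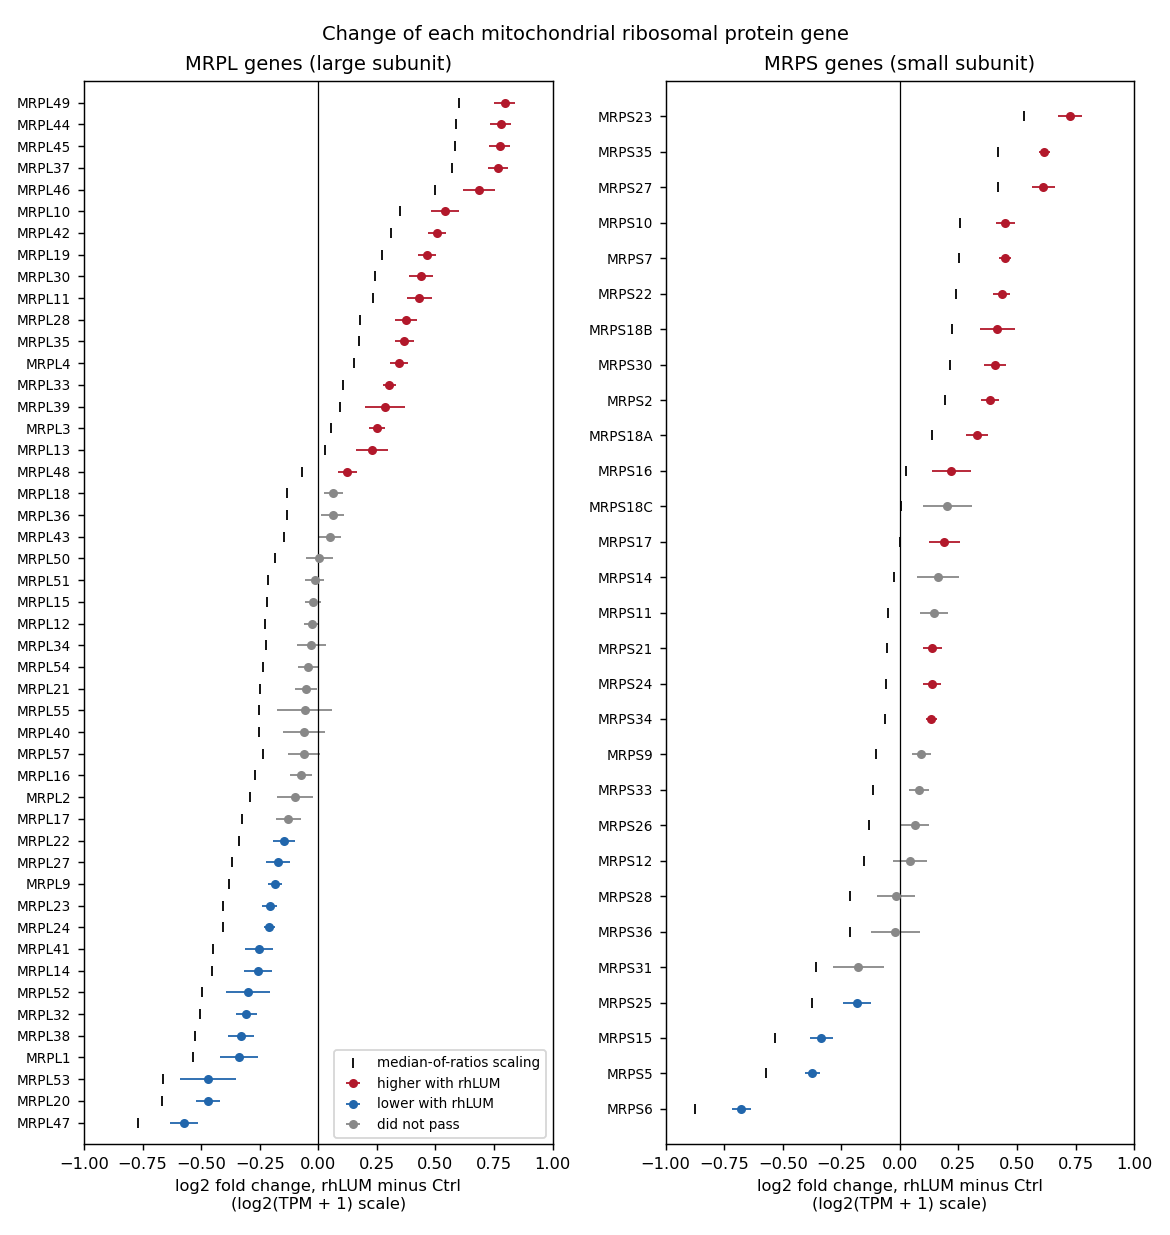
Log2 fold change (rhLUM minus Ctrl, log2(TPM + 1)) of each of the 77 genes, dots with SE, coloured by the limma call as deposited, with black ticks at the value under median-of-ratios scaling. Changes run from -0.68 for MRPS6 to 0.80 for MRPL49, and the ticks lie to the left of the dots.

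Of the 48 MRPL genes 18 rose and 14 fell (37.5% and 29.2%), with a median change of -0.026. Of the 29 MRPS genes 15 rose and 4 fell (51.7% and 13.8%), with a median of 0.15. Of all genes tested 44.5% rose and 22.3% fell, with a median of 0.16. Median-of-ratios scaling gave 14 higher and 28 lower MRPL genes (median -0.22), and 10 MRPS genes were higher and 7 lower (median -0.050). That scaling called 32.7% of all genes tested higher and 32.5% lower. Under all 4 scalings 13 MRPL genes (27.1%) were higher and 14 (29.2%) lower, and 8 MRPS genes (27.6%) were higher and 4 (13.8%) lower. The shares over all genes tested were 30.6% and 22.2%. Median transcript length was 933.5 bases for MRPL and 1281 bases for MRPS genes. After each library was adjusted for length and GC, 14 MRPL genes were higher and 21 lower (median -0.050). With the same adjustment 11 MRPS genes were higher and 6 lower (median 0.020), so the medians lay closer together than as deposited. The proteins of MRPS30 and MRPS18A are known to sit in the large subunit and MRPS36 belongs to another complex. Sorted by structure, 20 of 50 large subunit genes rose and 14 fell (40% and 28%), and 13 of 26 small subunit genes rose and 4 fell (50% and 15.4%). Whether the subunits differ beyond their genes' spread was not tested.

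Summed over the 29 MRPS genes, the level was 2003, 2009 and 2058 TPM in the rhLUM libraries, against 1834, 1827 and 1798 TPM in the Ctrl libraries. As deposited, every rhLUM library was above every Ctrl library. All subunit sums and ratios given here leave out 5 mitoribosomal proteins with other symbols, most of them in the small subunit. Counting them would change the ratio below mainly through the small subunit sum, and no ratio with them is given here. Of those 5, 1 rose and 4 fell, and they summed to 561 to 577 TPM with rhLUM and 589 to 592 TPM in Ctrl. Summed MRPL expression was 4019.9, 4028 and 4114 TPM with rhLUM and 4040.4, 3999 and 3993 TPM in Ctrl, and here the groups overlapped. These directions depend on the scaling. Under median-of-ratios scaling the small subunit sums were 1862 to 1908 with rhLUM and 1917 to 1966 in Ctrl, and the large subunit sums 3737 to 3813 with rhLUM and 4258 to 4330.2 in Ctrl, so that both were lower with rhLUM, and both were lower under upper quartile scaling too. With the sum taken without the genes of the mitochondrial genome, the small subunit was higher with rhLUM (2343 to 2402, against 2267 to 2308 in Ctrl) and the large subunit lower (4701 to 4800.4, against 5034 to 5084 in Ctrl). The ratio of the large to the small subunit sum, which no scaling of a library can change, was 2.01, 2.00 and 2.00 with rhLUM and 2.20, 2.19 and 2.22 in Ctrl. It averaged 2.00 ± 0.0041 with rhLUM and 2.20 ± 0.016 in Ctrl (SD, n = 3 each), with no overlap of the groups. With genes sorted by structure the ratio was 2.15 ± 0.0047 with rhLUM and 2.35 ± 0.021 in Ctrl. An adjustment for length and GC differs between genes and can change these ratios, and no ratio after it is given here. No test was run on these sums, since with 3 libraries a group the smallest two-sided exact p is 0.1.

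**Figure D2:**
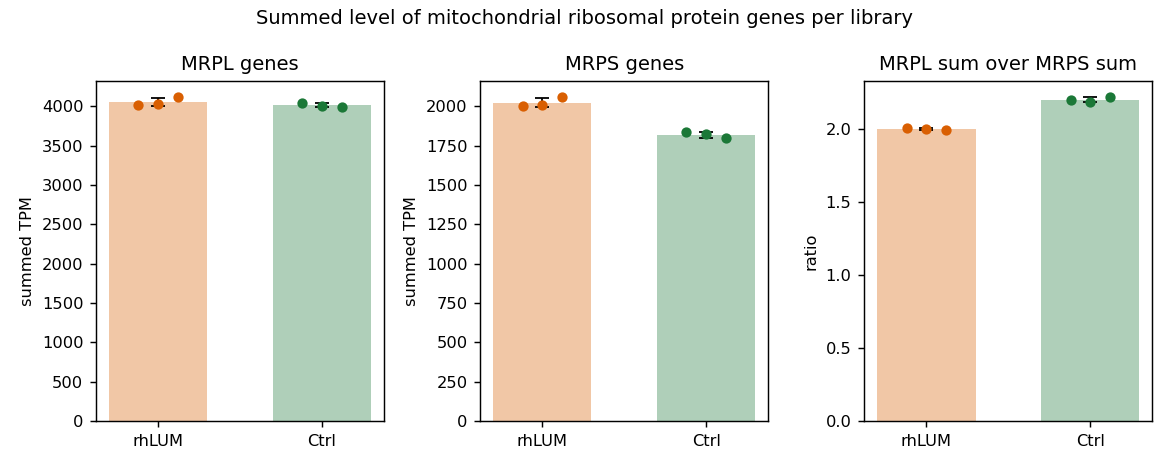
Summed TPM of the large (MRPL) and small (MRPS) subunit genes and their ratio, bars for the mean of 3 libraries, error bars for SD, points for libraries, rhLUM left of Ctrl. Mitoribosomal proteins with other symbols are left out. As deposited, the small subunit sums are higher with rhLUM (2003 to 2058, against 1798 to 1834 in Ctrl) and the large subunit sums overlap, whereas both are lower with rhLUM under median-of-ratios scaling, and the ratio is lower under any scaling.

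The 10 largest rises and 10 largest falls described below were taken from genes that passed the test and whose groups did not overlap. Their lack of overlap is thus part of the choice. Of the 7 large subunit genes among the 10 largest rises, 6 code for proteins added in the mitochondrial lineage, MRPL10 being the exception. Sorted by structure, 20 of the 50 large subunit genes were put in that class, MRPS18A among them. MRPL49 (chr11:65122183-65127371, plus strand) was at 46.7, 48.1 and 46.5 TPM in the rhLUM libraries, against 27.9, 25.4 and 26.8 TPM in the Ctrl libraries. All 3 rhLUM libraries were above all 3 Ctrl libraries, and the change was 0.80 ± 0.045 (SE), adjusted p = 5.86e-06. Its locus overlaps FAU on the opposite strand, which codes for a cytosolic ribosomal protein and fell (498 ± 14.5 TPM with rhLUM and 651 ± 8.87 TPM in Ctrl, log2 change -0.39). The sources used here do not say how strand was used in counting, so reads in the shared bases cannot be told apart.

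MRPL44, a protein with a ribonuclease III-like fold (chr2:223957404-223967714, plus strand), had 33.0, 34.9 and 33.1 TPM in the rhLUM libraries, against 19.3, 19.5 and 18.8 TPM in the Ctrl libraries. The groups were well apart, with a log2 change of 0.78 ± 0.043 (SE), adjusted p = 5.17e-06. MRPL45, which lies at the exit of the peptide tunnel and tethers the ribosome to the inner membrane (chr17:38297023-38323218, plus strand), had 35.4, 33.6 and 34.3 TPM in the rhLUM libraries, against 19.7, 19.0 and 20.4 TPM in the Ctrl libraries. It too was higher in every rhLUM library, with a log2 change of 0.77 ± 0.045 (SE), adjusted p = 6.34e-06.

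MRPL37 (chr1:54184041-54225464, plus strand) had 77.2, 73.0 and 70.0 TPM in the rhLUM libraries, against 42.8, 42.6 and 42.6 TPM in the Ctrl libraries. The Ctrl libraries were nearly equal and every rhLUM library was far above them, with a log2 change of 0.77 ± 0.042 (SE), adjusted p = 4.64e-06. MRPL37 was 29th of the 77 genes by mean level with rhLUM and 50th in Ctrl. MRPL46, a protein with a Nudix-like fold, had 34.3, 37.5 and 31.2 TPM in the rhLUM libraries, against 20.4, 20.9 and 21.5 TPM in the Ctrl libraries, higher in every rhLUM library (log2 change 0.69, adjusted p = 9.39e-05). MRPL46 starts 33 bases from MRPS11, which runs the other way. MRPS11, a small subunit protein of bacterial descent, was at 68.6, 72.9 and 76.4 TPM in the rhLUM libraries, against 60.8, 68.7 and 67.2 TPM in the Ctrl libraries, its groups overlapped, and its change of 0.15 did not pass the test (adjusted p = 0.0619). The difference between these neighbours was not tested.

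MRPL10 and MRPL42 completed the large subunit genes among the 10 largest rises. MRPL10, which anchors the stalk that recruits translation factors, was at 29.03, 28.6 and 30.8 TPM in the rhLUM libraries, against 21.3, 18.6 and 19.9 TPM in the Ctrl libraries (log2 change 0.54, adjusted p = 0.000167). MRPL42 was at 145, 158 and 152 TPM in the rhLUM libraries, against 109, 105 and 105 TPM in the Ctrl libraries (log2 change 0.51, adjusted p = 2.16e-05). In both genes every rhLUM library was above every Ctrl library. MRPL42 was the most abundant of these 7 large subunit genes and stood 10th of the 77 by mean level with rhLUM and 18th in Ctrl.

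Of the 7 large subunit genes among the 10 largest falls, 4 code for counterparts of bacterial proteins (MRPL47, MRPL20, MRPL1 and MRPL32). Sorted by structure, 30 of the 50 large subunit genes do so. MRPL47, a protein of the tunnel exit (chr3:179588285-179604654, minus strand), had 80.4, 69.1 and 75.1 TPM in the rhLUM libraries, against 116, 112 and 107 TPM in the Ctrl libraries. Every rhLUM library was below every Ctrl library, with a log2 change of -0.57 ± 0.059 (SE), adjusted p = 0.00011. The end of MRPL47 overlaps that of ACTL6A, a chromatin remodelling subunit on the opposite strand, which fell as well (116 ± 6.38 TPM with rhLUM and 159 ± 7.57 TPM in Ctrl, log2 change -0.45).

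MRPL20, which binds ribosomal RNA early in assembly of the bacterial ribosome (chr1:1401908-1407313, minus strand), had 127, 117 and 134 TPM in the rhLUM libraries, against 170.5, 179 and 174 TPM in the Ctrl libraries. The groups did not overlap and the change was -0.47 ± 0.052 (SE), adjusted p = 0.000167. It was the 14th most abundant of the 77 genes with rhLUM and the 6th in Ctrl. Genes around MRPL20 fell too: of the 45 other tested genes within 1 Mb, 34 fell and 1 rose, with a median change of -0.55. One of them is AURKAIP1, itself a mitoribosomal protein gene of the small subunit, 26412 bases away. AURKAIP1 was at 64.5 ± 1.07 TPM with rhLUM and 98.3 ± 4.01 TPM in Ctrl, a change of -0.60 ± 0.038 (SE), adjusted p = 9.27e-06.

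MRPL53 (chr2:74471958-74473322, minus strand) had 34.2, 37.4 and 41.8 TPM in the rhLUM libraries, against 61.8, 52.0 and 45.1 TPM in the Ctrl libraries. It was the gene with the widest spread in Ctrl (coefficient of variation 15.8%), and its change was -0.47 ± 0.12 (SE), adjusted p = 0.0105. MRPL1, the counterpart of a bacterial large subunit protein, had 32.8, 39.9 and 37.97 TPM in the rhLUM libraries, against 46.4, 50.1 and 44.0 TPM in the Ctrl libraries, a change of -0.34 (adjusted p = 0.00782). MRPL38, a protein with a phosphatidylethanolamine-binding fold, had 56.1, 55.2 and 60.0 TPM in the rhLUM libraries, against 69.8, 77.6 and 68.9 TPM in the Ctrl libraries, a change of -0.33 (adjusted p = 0.00148). In each of the 3 genes the lowest Ctrl library was above the highest rhLUM library.

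MRPL52 had 62.0, 54.8 and 66.8 TPM in the rhLUM libraries, against 84.6, 70.0 and 72.2 TPM in the Ctrl libraries, with the groups close but not overlapping, and a change of -0.30 (adjusted p = 0.0238). Without Ctrl library A, rhLUM library A or rhLUM library B this call was lost (highest adjusted p = 0.0773). MRPL32 is cut by the m-AAA protease in the matrix before it enters the ribosome. It had 73.3, 72.7 and 72.2 TPM in the rhLUM libraries, against 84.6, 94.8 and 91.5 TPM in the Ctrl libraries, and every rhLUM library was lower, with a log2 change of -0.31 ± 0.045 (SE), adjusted p = 0.000686. The protease's subunits moved in opposite directions. AFG3L2 rose (53.8 ± 2.08 TPM with rhLUM and 33.1 ± 0.965 TPM in Ctrl, log2 change 0.68, adjusted p = 9.76e-06). SPG7 fell (27.0 ± 1.65 TPM with rhLUM and 52.1 ± 2.25 TPM in Ctrl, log2 change -0.92, adjusted p = 8.11e-06).

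**Figure D3:**
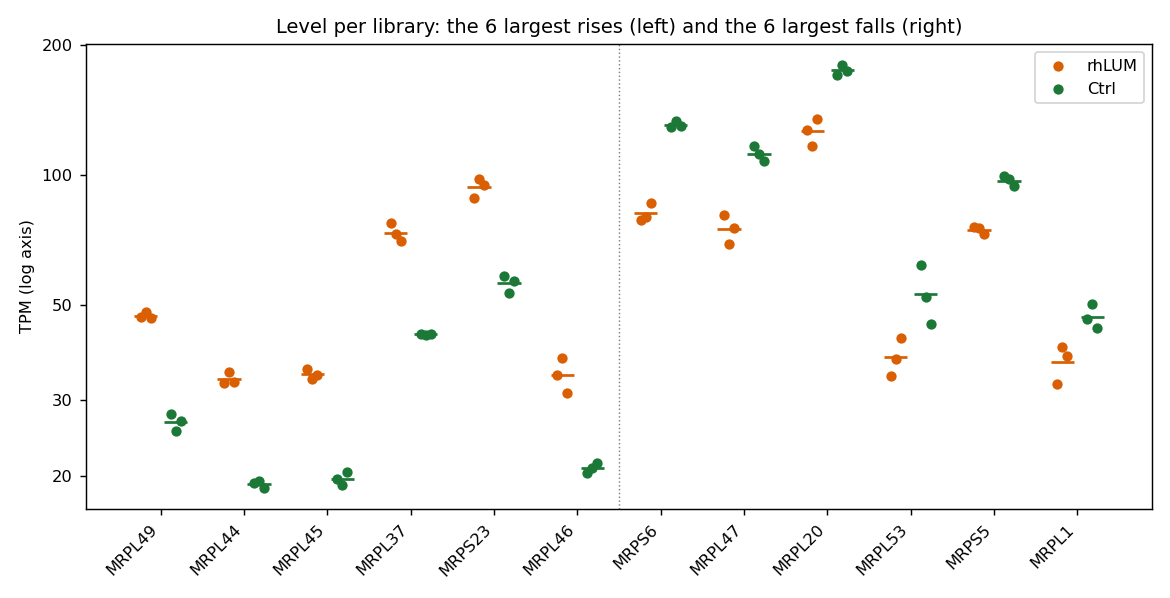
TPM of the 6 genes with the largest rises (left) and the 6 with the largest falls (right) in each library on a log axis, rhLUM left of Ctrl, lines at group means. In none of the 12 genes do the groups overlap, which is part of the choice of the genes. Of all genes tested, 71.4% had groups that did not overlap. MRPL53 has the widest Ctrl spread, 45.1 to 61.8 TPM.

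Among small subunit genes, MRPS23 rose most. MRPS23 (chr17:57834781-57850056, minus strand) had 88.2, 97.4 and 94.5 TPM in the rhLUM libraries, against 58.3, 53.2 and 56.6 TPM in the Ctrl libraries. Every rhLUM library was above every Ctrl library, with a log2 change of 0.73 ± 0.051 (SE), adjusted p = 1.54e-05. MRPS35 (chr12:27710773-27756295, plus strand) had 171, 168 and 172 TPM in the rhLUM libraries, against 112, 110.5 and 109 TPM in the Ctrl libraries. The spread within each group was small beside the difference of 0.62 ± 0.024 (SE), adjusted p = 1.14e-06. MRPS35 was 9th of the 77 genes by mean level with rhLUM and 16th in Ctrl.

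MRPS27, a pentatricopeptide repeat protein, had 36.9, 37.5 and 36.7 TPM in the rhLUM libraries, against 25.03, 22.4 and 24.3 TPM in the Ctrl libraries, higher in every rhLUM library, with a change of 0.61 (adjusted p = 3.28e-05). Its locus overlaps PTCD2, which rose as well (6.48 ± 0.876 TPM with rhLUM and 3.40 ± 0.458 TPM in Ctrl, log2 change 0.76). MRPS23, MRPS35 and MRPS27 are all proteins with no bacterial counterpart.

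MRPS6 fell most of all 77 genes. MRPS6, the counterpart of bacterial S6 (chr21:34073224-34143034, plus strand), had 78.3, 79.6 and 86.0 TPM in the rhLUM libraries, against 129, 133 and 129 TPM in the Ctrl libraries. Every rhLUM library was far below every Ctrl library, with a log2 change of -0.68 ± 0.041 (SE), adjusted p = 8.11e-06. The locus holds SLC5A3, a myo-inositol transporter gene on the same strand, which rose (16.5 ± 0.0850 TPM with rhLUM and 9.54 ± 0.351 TPM in Ctrl, log2 change 0.73). Reads in bases that both genes use cannot be told apart. MRPS6 was 23rd of the 77 genes by mean level with rhLUM and 13th in Ctrl.

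MRPS5 (chr2:95087207-95149434, minus strand) had 75.5, 75.3 and 72.7 TPM in the rhLUM libraries, against 99.0, 97.5 and 93.9 TPM in the Ctrl libraries, a change of -0.37 ± 0.033 (SE), adjusted p = 5.09e-05. MRPS15 had 81.4, 81.9 and 90.6 TPM in the rhLUM libraries, against 111, 106 and 104 TPM in the Ctrl libraries, a change of -0.34 (adjusted p = 0.000722). Both code for counterparts of bacterial small subunit proteins, and in both every rhLUM library was below every Ctrl library. The 4th MRPS gene that fell was MRPS25 (27.8, 27.2 and 24.6 TPM with rhLUM and 31.6, 29.1 and 29.9 TPM in Ctrl, log2 change -0.18, adjusted p = 0.0278), and this call was lost without Ctrl library A, Ctrl library C or rhLUM library C (highest adjusted p = 0.0919).

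Ratios between genes of a subunit are free of scaling. MRPS35 over MRPS6 was 2.18, 2.11 and 2.00 with rhLUM, against 0.872, 0.828 and 0.847 in Ctrl, so that the order of these small subunit genes was turned. MRPL37 over MRPL47 averaged 0.983 ± 0.066 with rhLUM and 0.382 ± 0.015 in Ctrl, and MRPL44 over MRPL53 averaged 0.896 ± 0.092 with rhLUM and 0.368 ± 0.052 in Ctrl (SD, n = 3 each). These pairs were chosen after their values were seen. Across all 77 genes the order of the mean levels was close in the groups (Spearman's rho 0.94, across genes, which share libraries and are not independent replicates).

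By descent, 46 of the proteins were sorted as having a bacterial counterpart and 30 as added in mitochondria, MRPS36 standing in neither class. MRPS18A and MRPS18B, which both rose as deposited, were counted as added. They share their origin by duplication with MRPS18C, which was counted with the bacterial counterparts, so their class is open to question. This sorting was made after the values were seen. Of the 46, 17 rose and 13 fell (37.0% and 28.3%, median 0.053), against 44.5% and 22.3% of all genes tested. Under all 4 scalings 10 of the 46 were higher and 13 lower (21.7% and 28.3%), against 30.6% and 22.2% of all genes. Of the 30, 16 rose and 5 fell (53.3% and 16.7%, median 0.13), and under all 4 scalings 11 were higher and 5 lower (36.7% and 16.7%). Of the 10 largest rises 9 were of the added class (MRPL10 was the exception), to which 30 of all 77 genes belong. Of the 10 largest falls 7 had a bacterial counterpart, as do 46 of all 77. Whether change goes with descent was not tested.

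The 3 MRPS18 genes arose by duplication, and their proteins occupy different places, MRPS18A in the large and MRPS18B and MRPS18C in the small subunit. MRPS18A had 30.03, 30.8 and 31.6 TPM in the rhLUM libraries, against 23.7, 23.6 and 25.6 TPM in the Ctrl libraries. MRPS18B had 45.4, 40.9 and 47.7 TPM in the rhLUM libraries, against 36.1, 32.0 and 31.5 TPM in the Ctrl libraries. In both every rhLUM library was higher, with log2 changes of 0.33 and 0.42 (adjusted p = 0.000687 and 0.00188), but these calls did not hold under all 4 scalings. MRPS18C had 60.8, 78.2 and 81.3 TPM in the rhLUM libraries, against 61.9, 65.6 and 62.0 TPM in the Ctrl libraries. Here the groups overlapped and the change of 0.20 did not pass the test (adjusted p = 0.123), and under upper quartile scaling it was -0.029.

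MRPS30, whose protein lies in the large subunit and is related to MRPL37, had 41.3, 37.2 and 38.2 TPM in the rhLUM libraries, against 29, 28.7 and 29.7 TPM in the Ctrl libraries. It was higher in every rhLUM library, with a log2 change of 0.41 ± 0.048 (SE), adjusted p = 0.000242, and under all 4 scalings. MRPS36, now known as a component of the oxoglutarate dehydrogenase complex, had 34.5, 33.5 and 44.9 TPM in the rhLUM libraries, against 36.8, 38.8 and 37.9 TPM in the Ctrl libraries. Its rhLUM libraries were the most variable of any of the 77 genes (coefficient of variation 16.7%), and the change of -0.020 did not pass (adjusted p = 0.877). MRPL12, the stalk protein that also binds the mitochondrial RNA polymerase, had 198, 200.4 and 188 TPM in the rhLUM libraries, against 199.9, 196 and 201 TPM in the Ctrl libraries. Its groups overlapped, and the change of -0.029 did not pass (adjusted p = 0.431).

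The most abundant of the 77 genes was MRPL51, at 366, 393 and 409 TPM in the rhLUM libraries, against 391, 386 and 402 TPM in the Ctrl libraries. Its groups overlapped and its change of -0.016 did not pass (adjusted p = 0.75). MRPL24, a protein of the tunnel exit, was second at 286, 298 and 298 TPM in the rhLUM libraries, against 338, 346 and 337 TPM in the Ctrl libraries. Every rhLUM library was lower, with a log2 change of -0.21 ± 0.024 (SE), adjusted p = 0.000191. MRPL33, next in order, was at 228, 222 and 228 TPM in the rhLUM libraries, against 189, 178 and 183 TPM in the Ctrl libraries. Every rhLUM library was higher as deposited, with a log2 change of 0.30 ± 0.028 (SE), adjusted p = 6.1e-05, but this call did not hold under all 4 scalings.

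The lowest were MRPL57 and MRPS31, both with overlapping groups. MRPL57 was at 7.26, 7.63 and 6.97 TPM in the rhLUM libraries, against 7.38, 8.12 and 7.45 TPM in the Ctrl libraries (log2 change -0.062, adjusted p = 0.454). MRPS31 was at 9.01, 10.2 and 7.60 TPM in the rhLUM libraries, against 11.1, 9.34 and 10.1 TPM in the Ctrl libraries (log2 change -0.18, adjusted p = 0.189). MRPL39, next above them, was at 24.1, 19.4 and 23.7 TPM in the rhLUM libraries, against 18.1, 17.6 and 18.7 TPM in the Ctrl libraries. Its groups did not overlap, and it rose, with a log2 change of 0.28 ± 0.085 (SE), adjusted p = 0.0206. In 4 of the 6 fits that left out 1 library it did not pass (highest adjusted p = 0.0770). Nor did it pass under median-of-ratios scaling (log2 change 0.094), upper quartile scaling (0.059), the sum without the genes of the mitochondrial genome (0.18) or after length and GC correction (0.11).

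The remaining genes called under all 4 scalings had smaller changes than the 10 largest in their direction. The higher ones were MRPL19, MRPS10, MRPS7, MRPL30, MRPS22, MRPL11, MRPS2, MRPL28, MRPL35 and MRPL4, with log2 changes of 0.34 to 0.46. The lower ones were MRPL14, MRPL41, MRPL23, MRPL9, MRPL27 and MRPL22, with log2 changes of -0.26 to -0.14. MRPS7, which binds the small subunit RNA, was the most abundant of the higher ones, at 192, 195 and 194 TPM in the rhLUM libraries, against 144, 142 and 138 TPM in the Ctrl libraries, and was higher in every rhLUM library (log2 change 0.45, adjusted p = 5.78e-06).

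Small changes turned sign with the scaling. MRPL48 had 52.2, 56.5 and 55.9 TPM in the rhLUM libraries, against 49.5, 50.9 and 50.4 TPM in the Ctrl libraries, above in every rhLUM library as deposited (log2 change 0.12, adjusted p = 0.0293), and -0.071 under median-of-ratios scaling. MRPS34, which is needed for a stable small subunit, had 148, 146 and 148 TPM in the rhLUM libraries, against 134, 133 and 136 TPM in the Ctrl libraries, likewise above in every rhLUM library (log2 change 0.13, adjusted p = 0.00170). Under median-of-ratios scaling MRPS34 was lower, with a log2 change of -0.064 (adjusted p = 0.0467). In all, 12 of the 33 genes that rose as deposited did not keep that call under the 4 scalings.

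The 26 genes that did not pass had 11 values above 0 and 15 below, and their groups overlapped in 24. By groups that do not overlap, 34 of the 77 were higher and 18 lower, against 71.4% of all genes tested, 47.0% as higher and 24.3% as lower. Of the 51 calls, 40 held in each of the 6 fits that left out 1 library (26 higher and 14 lower). The 11 that did not were MRPL13, MRPL22, MRPL27, MRPL39, MRPL48, MRPL52, MRPS16, MRPS17, MRPS21, MRPS24 and MRPS25.

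Change went weakly with transcript length. Across the 77 genes Spearman's rho was 0.17 with length, -0.23 with GC content and -0.23 with mean TPM, and across the 12834 tested genes with a known length it was 0.20. These points share libraries and are a description. Genes higher under all 4 scalings had a median length of 1276 bases and a GC content of 46.4%, and those lower had 998 bases and 54.0%. Of the 16 genes from 1500 to under 2500 bases, 10 rose and 2 fell (62.5% and 12.5%, median 0.40), against 48.2% and 21.4% of all 3106 genes of that length (median 0.19). Of the 17 under 750 bases, 5 rose and 4 fell (29.4% and 23.5%, median -0.015), against 35.6% and 25.05% of all 2088 genes of that length (median 0.064). After correction of each library for length and GC content, 25 of the 77 were higher and 27 lower, against 34.5% and 32.3% of all genes with a known length, and rho with length was 0.024. The 21 genes higher under all 4 scalings were also higher after the correction, and 17 of the 18 lower genes were also lower, MRPL41 being the exception.

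**Figure D4:**
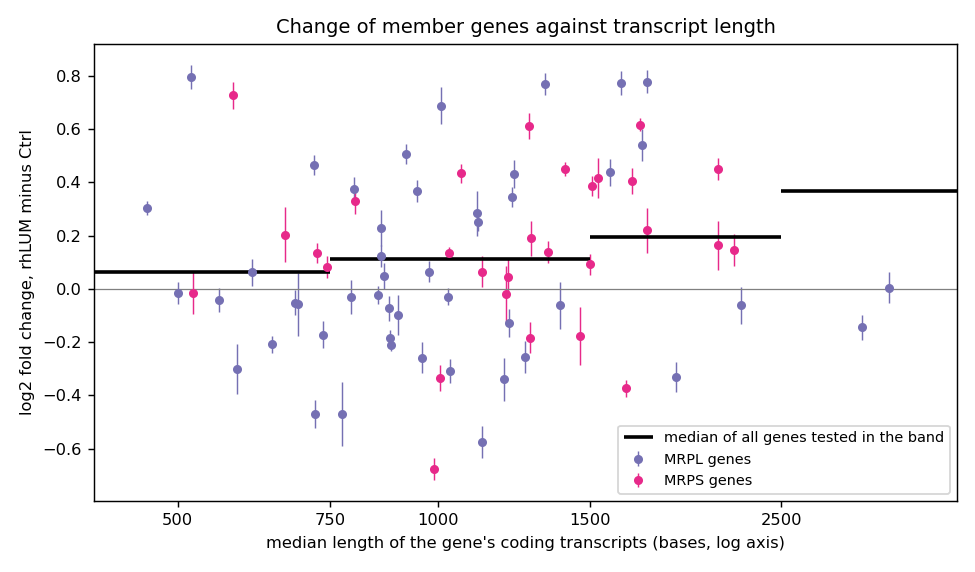
Log2 fold change (± SE) of the 77 genes against transcript length in bases, with black lines at the median of all tested genes in each length band. The 16 genes from 1500 to under 2500 bases have a median of 0.40, against 0.19 for all genes of that length, and genes of every band lie on both sides of 0.

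The other genes of the mitochondrial translation machinery were followed in lists chosen with earlier results of these data known. As a background for their counts, 44.5% of all genes tested were higher and 22.3% lower as deposited, and 32.7% and 32.5% under median-of-ratios scaling. Of 5 mitoribosomal proteins with other symbols, 1 rose and 4 fell (median -0.12). The riser was PTCD3, a pentatricopeptide repeat protein of the small subunit (111 ± 11.7 TPM with rhLUM and 81.5 ± 1.03 TPM in Ctrl, log2 change 0.44). AURKAIP1 fell most, and GADD45GIP1 (-0.16), CHCHD1 (-0.12) and the GTP-binding DAP3 (-0.060) fell by less. DAP3 was at 321, 325 and 326 TPM in the rhLUM libraries, against 342, 336 and 334 TPM in the Ctrl libraries. Its groups lay close and did not overlap.

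For assembly of the small subunit, 3 of 8 genes rose and 2 fell, and 3 fell under median-of-ratios scaling. The methyltransferases NSUN4 (11.4 ± 0.639 TPM with rhLUM and 7.90 ± 0.486 TPM in Ctrl) and METTL15 (14.4 ± 0.196 TPM with rhLUM and 10.3 ± 0.0666 TPM in Ctrl) and the GTPase NOA1 (10.2 ± 0.0781 TPM with rhLUM and 7.11 ± 0.191 TPM in Ctrl) rose, with log2 changes of 0.48, 0.44 and 0.46. TFB1M, which dimethylates the small subunit RNA, fell (8.33 ± 0.394 TPM with rhLUM and 11.3 ± 1.02 TPM in Ctrl, log2 change -0.39), as did the ribosome-binding factor RBFA (-0.27). For assembly of the large subunit, 9 of the 15 tested genes rose and 1 fell (60.0% and 6.67%, median 0.22). Under median-of-ratios scaling 5 were higher (33.3%, near the background) and 2 lower, and after length and GC correction 5 were higher and 4 lower. FASTKD2, which binds the large subunit RNA, rose most (24.1 ± 1.07 TPM with rhLUM and 13.8 ± 0.596 TPM in Ctrl, log2 change 0.77). The pseudouridine synthases TRUB2 (0.76) and RPUSD4 (0.52) and the NSUN4 partner MTERF4 (0.70) rose too, and MTERF3 fell (-0.20).

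Of 15 tested translation factors 9 rose and 2 fell as deposited (median 0.25), but with median-of-ratios scaling the split was 2 higher and 5 lower, and after length and GC correction it was 3 and 5. GFM2, which recycles ribosomes, rose (29.7 ± 2.38 TPM with rhLUM and 19.2 ± 1.40 TPM in Ctrl, log2 change 0.60 as deposited and 0.41 under median-of-ratios scaling), and so did the elongation factor TSFM (0.38 and 0.19). For GFM1, the elongation factor of translocation, the change was 0.27 as deposited and 0.075 under median-of-ratios scaling, and for GUF1 it was 0.31 and 0.13, and neither passed under that scaling. SLIRP, an mRNA-stabilising protein, fell (201 ± 2.47 TPM with rhLUM and 238 ± 14.6 TPM in Ctrl, log2 change -0.24), and so did the initiation factor MTIF3 (-0.16). TUFM, the elongation factor that brings in aminoacyl-tRNA, was at 140.4 ± 4.32 TPM with rhLUM and 144 ± 6.76 TPM in Ctrl and did not pass.

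Genes of mitochondrial transcription and DNA maintenance were split, with 3 of 8 higher and 3 lower. TFAM (0.59), TFB2M (0.65) and the elongation factor TEFM (0.70) rose. The RNA polymerase POLRMT (18.5 ± 1.42 TPM with rhLUM and 26.5 ± 2.28 TPM in Ctrl, log2 change -0.50), the DNA polymerase POLG (-0.48) and SSBP1 (-0.17) fell. Among 8 tested regulators of mitochondrial biogenesis 3 rose and 1 fell. GABPA, the DNA-binding subunit of the ETS factor GABP, rose (16.1 ± 0.594 TPM with rhLUM and 10.1 ± 0.286 TPM in Ctrl, log2 change 0.62), as did MYC (0.35) and YY1 (0.26). Under median-of-ratios scaling the change of YY1 was 0.066 and did not pass. PPRC1, a coactivator of the PGC-1 family, fell (-0.33), and NRF1 did not pass (7.65 ± 0.391 TPM with rhLUM and 7.32 ± 0.667 TPM in Ctrl, log2 change 0.059). PPARGC1A was near 0 in both groups and was not tested.

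**Figure D5:**
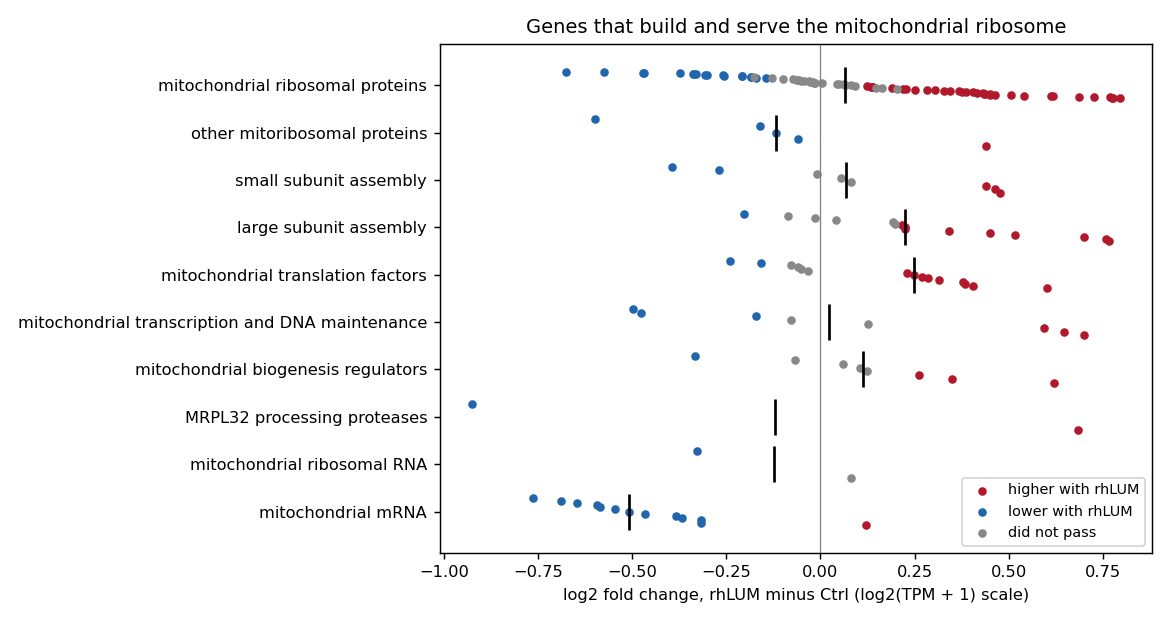
Log2 fold change (rhLUM minus Ctrl, log2(TPM + 1), as deposited) of each tested gene in the lists of other mitochondrial genes, points coloured by the limma call, black lines at the list medians. Nuclear lists have genes on both sides of 0, and 12 of the 13 mitochondrial mRNAs are below 0.

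The RNAs that the ribosome is built on, and those it reads, come from the mitochondrial genome. MT-RNR1, the small subunit RNA, was at 5539, 5709.6 and 5766 TPM in the rhLUM libraries, against 4722, 5947 and 5470.4 TPM in the Ctrl libraries. The groups overlapped and the change of 0.082 did not pass (adjusted p = 0.362). MT-RNR2, the large subunit RNA, was at 9332, 9397 and 9586 TPM in the rhLUM libraries, against 11590.1, 12156 and 11806 TPM in the Ctrl libraries, lower in every rhLUM library (log2 change -0.33 ± 0.019 (SE), adjusted p = 5.73e-06). Since poly-A RNA was selected, levels of ribosomal RNA depend on how much of it was captured. Of the 13 mitochondrial mRNAs 12 fell and 1, MT-ND5, rose as deposited (median -0.51), and all 13 were lower under median-of-ratios scaling. MT-ATP6 changed by -0.76, MT-CO2 by -0.59 and MT-CYB by -0.59.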

How the data were processed

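Total RNA from MHCC97L xenografts was selected for poly-A and sequenced in 6 libraries, 3 rhLUM and 3 Ctrl, grouped by their titles. Per the labels' protocols, the KAPA mRNA HyperPrep kit and an Illumina NovaSeq were used. GRCh38, STAR 2.7.8 and RSEM 1.2.31 are named in the submitters' processing notes. For the annotation release, strand and host mouse reads the answer is not given in the sources used here. The authors deposited TPM, 1 table per library, per the file headers. TPM keeps no depth, and a fall in abundant RNAs raises the share of all others.

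The filter kept genes whose symbol stood on a single row and whose mean reached 1 TPM. A total of 2210 rows shared a symbol and were left out. Group means of log2(TPM + 1) were compared in limma 3.58.1 (R 4.3.3), using a variance trend and no other term (4 residual degrees of freedom). The script was tested on simulated data first. Tests were two-sided with Benjamini-Hochberg adjustment over all 14781 genes. The pseudocount understates changes of low genes. Positions, lengths and GC content came from GENCODE release 29 by symbol, and promoters from RefSeq. Alternatives were other scalings, a pseudocount of 0.1, no filter, a replicate block, a 1.2-fold test, a length and GC correction, and leaving out each library. A fit without the variance trend was chosen after seeing the data.

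The genes and lists were chosen with earlier results of these data known. Named genes were the 10 largest changes in each direction with groups that did not overlap, the 3 highest and 3 lowest genes, genes with a role of their own, genes whose direction turned, and the 4 smallest p of each list. Overlapping neighbours, MRPS7, MRPS25, RBFA, MTERF3, MTIF3, TUFM, TEFM, POLRMT, NRF1, PPARGC1A and MT-ND5 were named after their values were seen. One leukocyte marker is not reported here.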

Additional observations from a re-analysis of the deposited data

How the results depend on the processing

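The calls depended on scaling. Under upper quartile scaling 21 of the 77 genes were higher and 41 lower, and under median-of-ratios scaling 35 were lower, against 33 higher and 18 lower as deposited. Of MRPL genes, 28 were lower under median-of-ratios, 30 under upper quartile and 22 without the genes of the mitochondrial genome, against 14. Of MRPS genes, 8 were higher under upper quartile scaling, and 7 (median-of-ratios) and 11 (upper quartile) were lower, against 15 higher and 4 lower. Of all genes, 5117 were lower under upper quartile scaling, against 3299. Among the nuclear genes of the related lists, 29 rose and 14 fell. The higher calls were 17 under median-of-ratios, 16 under upper quartile and 17 after length and GC correction, and the lower calls were 24 under upper quartile and 22 after that correction.

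Against a 1.2-fold change, 18 of the 77 rose and 4 fell (MRPL 10 and 2, MRPS 8 and 2), with 4190 and 1811 of all genes and 16 and 4 of the related genes. These counts are smaller by the test's construction.

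Leaving out 1 library gave 27 to 31 higher and 15 to 17 lower of the 77. For MRPL these were 15 to 17 and 12 to 13, for MRPS 11 to 15 and 3 to 4, for all genes 6140 to 6282 and 2973 to 3124, and for related genes 27 to 28 and 11 to 13.

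Some small changes turned sign. MRPL48 was -0.071 under median-of-ratios, -0.11 under upper quartile and -0.043 after length and GC correction. MRPS34 was -0.064 and -0.10 under those scalings, and MRPS18C -0.029 under upper quartile. GFM1 was -0.0072 and GUF1 -0.12 after length and GC correction. Leaving out 1 library moved MRPL51 between -0.052 and 0.028 (0.00014 without Ctrl replicate C) and MRPS36 between -0.15 and 0.055 (0.034 without rhLUM replicate A). The cause was not tested.

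With the replicate letter as a replicate block 32 of the 77 were higher and 18 lower. Deviations of libraries with the same letter correlated at 0.029, -0.023 and 0.084 for A, B and C, so the letters were not taken to pair the libraries.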

Other observations

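The tables hold 73 rows named as pseudogenes of the 77 genes, of which 56 were at 0 in all 6 libraries and none reached the level needed for testing.

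Tested genes within 1 Mb of the genes that changed most were counted as well. Around 9 of the 10 largest rises more neighbours were higher than lower, and so they were around 6 of the 10 largest falls, with more lower around 3 (MRPL20, MRPL47 and MRPS5). For MRPL20 34 of 45 neighbours were lower and 1 higher (median -0.55). The excess was small for MRPL47, with 5 of 11 lower and 4 higher (median 0.11). For MRPS5 2 of 7 were lower and 0 higher (median -0.033). Of all genes tested, 44.5% were higher and 22.3% lower. Around MRPL37 10 of 19 neighbours were higher and 1 lower (median 0.30), and around MRPS23 10 of 17 were higher and 1 lower (median 0.42). Around MRPL1, which was lower with rhLUM, 6 of 8 were higher and 0 lower (median 0.39), and around MRPS6, which was lower, 8 of 16 were higher and 3 lower (median 0.27).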
